A study of Mus musculus with 4 samples.

Results

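Kit and Il2ra double-positive cells were selected on their mRNA counts from 2 single-cell RNA-seq experiments on mouse T-cell progenitors. Il2ra encodes CD25, the alpha chain of the interleukin-2 receptor, and Kit encodes the receptor for stem cell factor. A cell was taken as double-positive when it had at least 2 Kit, 3 Il2ra and 1 Tcf7 unique molecular identifiers (UMIs, which stand for counted mRNA molecules) and no UMI of Bcl11b or Zbtb16. It also had to have at least 500 detected genes and under 10% of its UMIs on mitochondrial genes. The rule found 1705 of 19546 kept cells: 1246 of 9332 in experiment 1 (13.4%, exact Clopper-Pearson 95% interval 12.7 to 14.1%) and 459 of 10214 in experiment 2 (4.49%, 4.10 to 4.91%). Of the 4 markers that name this stage (Kit, Il2ra, Tcf7 and Gata3), Gata3 alone was not read by the rule.

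Progenitors came from bone marrow of Bcl2 transgenic mice and were grown on OP9-Dll1 cells with IL-7 and Flt3-ligand at 10 ng/ml each. Every progenitor-derived cell compared here therefore carries that transgene. OP9-Dll1 is a bone marrow stromal line that displays a Notch ligand, which lets T-cell development start in a dish. Retroviral vectors were added on day 2. One arm received MSCV-Runx1-mCherry or MSCV-empty-mCherry, with progenitors from mice aged 8 to 10 weeks and harvests on days 4 and 6. In the other arm, progenitors from Cas9 and Bcl2 transgenic mice received E42 vectors with 3 guide RNA pairs each against Runx1 and Runx3, or control guides against luciferase, and were harvested on days 5 and 8. Sorted cells were negative for lineage markers and positive for CD45 and the vector markers. Culture times in the labels are 4 to 5 days for experiment 1 and 4 to 8 days for experiment 2. Each experiment has 1 mRNA library and 1 hashtag library.

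In the thymus, multipotent progenitors with Kit on their surface meet Notch ligands and enter the T-cell pathway. They next switch on Il2ra and T-lineage factors such as Tcf7 and Gata3, while progenitor factors such as Spi1 (PU.1) are still present; this stage is called DN2a. Commitment follows when Bcl11b is activated and the progenitor genes are shut off. Zbtb16 encodes PLZF, a factor of innate-like lymphocytes.

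Cultures were told apart by hashtags, antibodies that carry a short DNA oligo. The hashtag columns are named by these oligo sequences alone, and the vector, guide and day behind each hashtag are therefore unknown here. The 8 sequences are shown because they are the names the samples have; they are the same in both experiments, are numbered here in column order, and no base is set in capitals.
hashtag 1: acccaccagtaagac
hashtag 2: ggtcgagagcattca
hashtag 3: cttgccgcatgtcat
hashtag 4: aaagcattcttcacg
hashtag 5: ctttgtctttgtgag
hashtag 6: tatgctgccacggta
hashtag 7: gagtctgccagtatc
hashtag 8: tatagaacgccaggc

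Kept cells had a median of 25246 UMIs in experiment 1 and 26647.5 in experiment 2, and 34 kept cell barcodes occurred in both libraries. Double-positive cells were deeper than all other kept cells: their median was 28552 against 24719 UMIs in experiment 1 and 35060 against 26239 in experiment 2. They also held more hashtag doublets, barcodes positive for more than 1 hashtag. Doublets made up 14.3% of double-positive cells (12.4 to 16.4%) against 6.38% of the others in experiment 1, and 32.9% (28.6 to 37.4%) against 20.0% in experiment 2. None of 35 and 291 cells without a hashtag met the rule, which allows shares of up to 8.57% and 1.03% (3 counts of the total). Each experiment has a single mRNA library and the hashtags' conditions are unknown, so conditions could not be tested against each other. The cells were chosen by their counts, so all levels below are descriptions, with intervals that cover counting error only. Values by hashtag use cells with 1 hashtag, which can still include doublets of cells that share a hashtag. Pooled values use all double-positive cells, and where leaving doublets out moves a level in them or a ratio by more than 1.5 times, that value is added.

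Double-positive cells were present under every hashtag, and their share differed between hashtags. In experiment 1 the shares for hashtags 1 to 8 were 14.3, 15.0, 7.62, 7.65, 17.6, 17.4, 9.73 and 10.3%. In experiment 2 they were 4.59, 1.90, 8.94, 0.989, 5.49, 2.36, 4.13 and 2.97%, with the fewest cells under hashtag 4 (10 of 1011). Hashtags 5 and 6 were highest in experiment 1, and hashtag 3 in experiment 2. The rule counts UMIs, so depth can move the share. Hashtags 1 and 2 of experiment 1 had medians of 29212 and 29509.5 UMIs, and hashtags 3 and 4 had 23840.5 and 24488. Over the hashtags of experiment 1 the share did not follow the median depth. Hashtags 5 and 6, with the highest shares, had 23125.5 and 24692 UMIs, and hashtags 7 and 8 had 17970 and 20854.5. In experiment 2 hashtag 4 had both the lowest share and the lowest median depth (18762 UMIs). The deepest were hashtags 1 and 3 (31756.5 and 29520 UMIs), with 4.59 and 8.94%. Hashtag 7 (21775 UMIs, 4.13%) went the other way from hashtag 6 (26874 UMIs, 2.36%). When each cell was thinned to 10000 UMIs before the rule, the total shares became 3.64% (318 of 8732 cells) and 0.693% (65 of 9381). The thinned shares of hashtags 1 to 4 of experiment 1 were 2.15, 2.59, 2.64 and 2.44%. By this measure hashtags 1 and 2 did not lie above hashtags 3 and 4. Hashtags 5 and 6 stayed above hashtags 1 to 4 at 6.72% (5.11 to 8.66%) and 5.45% (4.17 to 6.97%). Thinning also removes Bcl11b and Zbtb16 UMIs, so cells that the rule left out on deposited counts can meet it. The thinned shares therefore do not count the same cells at equal depth, and the part of depth in the gap was not tested. In experiment 2 at most 14 cells per hashtag met the rule after thinning, and hashtag 7 (1.53%, 0.836 to 2.55%) and hashtag 3 (1.19%, 0.616 to 2.07%) had the highest shares.

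**Figure D1:**
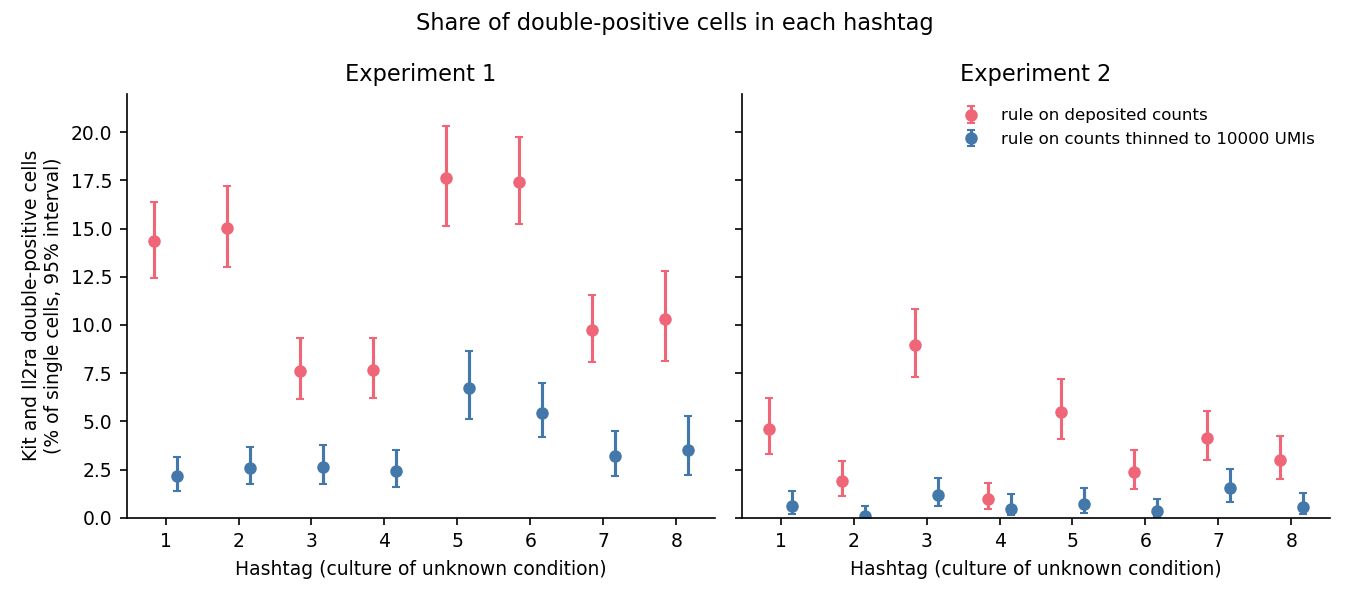
Share of cells with 1 hashtag that met the double-positive rule, by hashtag (percent, points), with exact 95% binomial intervals (bars). Values are for deposited counts and for counts thinned to 10000 UMIs per cell. Hashtags 5 and 6 of experiment 1 are highest by both measures, while hashtags 1 and 2 lie above 3 and 4 in the deposited counts only.

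Counts of the genes in the rule are given as description. The median cell had 3 Kit UMIs in both experiments, 12 Il2ra UMIs in experiment 1 and 10 in experiment 2, and 5 Tcf7 UMIs in both. Kit lay at its threshold in 40.5% and 46.2% of double-positive cells, Il2ra in 8.03% and 10.9%, and Tcf7 in 8.67% and 10.0%. Kit therefore sets the edge for far more cells than Il2ra or Tcf7. Just outside, 618 and 366 cells met every other condition with 1 Kit UMI, 103 and 52 with 2 Il2ra UMIs, and 97 and 38 with no Tcf7. A single Bcl11b UMI kept out 117 and 97 cells, and a single Zbtb16 UMI 228 and 101. Cells outside on Il2ra had more Mef2c (96.2 and 127 UMIs per 1000000, CPM) than double-positive cells (65.1 and 64.2 CPM), and less Thy1 (32.4 and 21.2 against 88.7 and 84.0 CPM). The cells with 1 Kit UMI had less Mef2c (50.0 and 39.7 CPM) and more Thy1 (127 and 131 CPM) than double-positive cells. Cells outside on Bcl11b by 1 UMI had less Mef2c (31.1 and 56.0 CPM) and more Thy1 (178 and 156 CPM). Doublets made up 38.1% of these cells in experiment 2. Over cells with 1 hashtag, Mef2c stood at 21.9 and 16.3 CPM outside on Bcl11b against 51.8 and 45.2 in double-positive cells. Outside on Kit it stood at 47.0 and 32.9 CPM.

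Double-positive cells were set beside 2 neighbouring gates. Early cells had at least 2 Kit UMIs and no Il2ra, Bcl11b or Zbtb16 (1165 and 988 cells in experiments 1 and 2). Committing cells had at least 3 Il2ra, 1 Tcf7 and 1 Bcl11b UMI and no Zbtb16 (697 and 1165 cells). UMIs were summed per gate and scaled to CPM, and a gene was counted as higher or lower when its ratio passed 1.5 and it reached 10 CPM in either gate. Against early cells, 2.23% of 7459 genes were higher and 2.2% lower in experiment 1, and 2.53% of 7165 were higher and 3.53% lower in experiment 2. Against committing cells, 1.41% of 7495 genes were higher and 2.94% lower in experiment 1, and 1.73% of 7166 were higher and 3.84% lower in experiment 2. Without doublets the count higher than in committing cells in experiment 2 went from 124 to 233 genes. Of the genes higher than in early cells, 126 were shared between experiments, which is 75.9% of the 166 in experiment 1 and 69.6% of the 181 in experiment 2. Of those lower than in early cells, 135 were shared (82.3% and 53.4%). Against committing cells, 74 higher genes (69.8% and 59.7%) and 174 lower genes (79.1% and 63.3%) were shared. In experiment 1, 70 genes (0.957% of 7315 that passed the minimum against both gates) were higher than in early cells and lower than in committing cells. In experiment 2, 72 genes were (1.03% of 6976), and 50 of these were shared. A further 42 and 36 genes (0.574% and 0.516%) lay between the gates in the opposite order, with 24 shared. All 3 gates use genes of this pathway, so an intermediate place of such genes follows in part from the choice of cells.

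Among 16 T-lineage transcription factors, 11 passed the level minimum against early cells, of which 2 were higher and none lower in each experiment. Both were the same genes, Gata3 and Tcf12, which encodes the E protein HEB. Gata3, a zinc-finger factor needed for T-cell development, ran over hashtags from 63.1 to 128 CPM (median 74.7) in double-positive cells of experiment 1, from 22.3 to 90.8 (34.3) in early cells and from 77.5 to 199 (94.9) in committing cells. In experiment 2 it ran from 48.0 to 125 CPM (58.4) in double-positive cells, from 11.1 to 72.9 (24.5) in early cells and from 57.4 to 110 (61.2) in committing cells. The ranges overlapped, but within every hashtag the double-positive cells were above the early cells (8 of 8 in both experiments). Pooled Gata3 was 1.80-fold higher than in early cells in experiment 1 (1.69 to 1.92) and 1.82-fold in experiment 2 (1.66 to 2.00), and 1.34-fold and 1.23-fold lower than in committing cells. Against all other kept cells Gata3 did not pass the fold used, with ratios of 0.99 and 1.13, so it set these cells apart from early cells but not from the other kept cells as a whole. After thinning, 50.5% of double-positive cells had a Gata3 UMI in experiment 1 (80.5% before thinning) and 39.2% in experiment 2 (79.3% before). Stromal barcodes without a hashtag, which should lack Gata3, had one in 5.88% of 17 and 1.85% of 108 barcodes after thinning, and in 17.6% and 7.41% before. The stromal barcodes had median depths of 26795 and 20739.5 UMIs, and the thinned double-positive cells 28602.5 and 35060.

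Tcf12 stood at 60.1 and 50.3 CPM in double-positive cells, against 38.1 and 31.2 in early and 89.2 and 76.4 in committing cells. Lef1, a partner of Tcf7 that follows it in T-cell development, was low: 4.07 and 7.58 CPM against 0.544 and 0.864 in early and 21.9 and 20.7 in committing cells. Ets1, an Ets factor of lymphocytes, was 4.89-fold and 3.78-fold lower than in committing cells. Against committing cells 13 of the 16 factors passed the minimum, and 2 (Lef1 and Ets1) and 3 (Lef1, Tcf12 and Ets1) were lower. Myb, a factor of progenitors and early T cells, was above early cells under every hashtag, at 326 against 248 CPM in experiment 1 and 206 against 138 in experiment 2. Runx1 and Runx3, the genes that the vectors and guides address, ran from 40.9 to 215 CPM and from 132 to 191 CPM over the hashtags of double-positive cells in experiment 1. In experiment 2 they ran from 30.3 to 154 and from 109 to 191 CPM. Hashtags 7 and 8 of experiment 1 were highest in Runx1 (203 and 215 CPM). Runx1 counts may include vector transcripts, and guide edits need not lower mRNA, so these levels do not check the conditions.

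**Figure D2:**
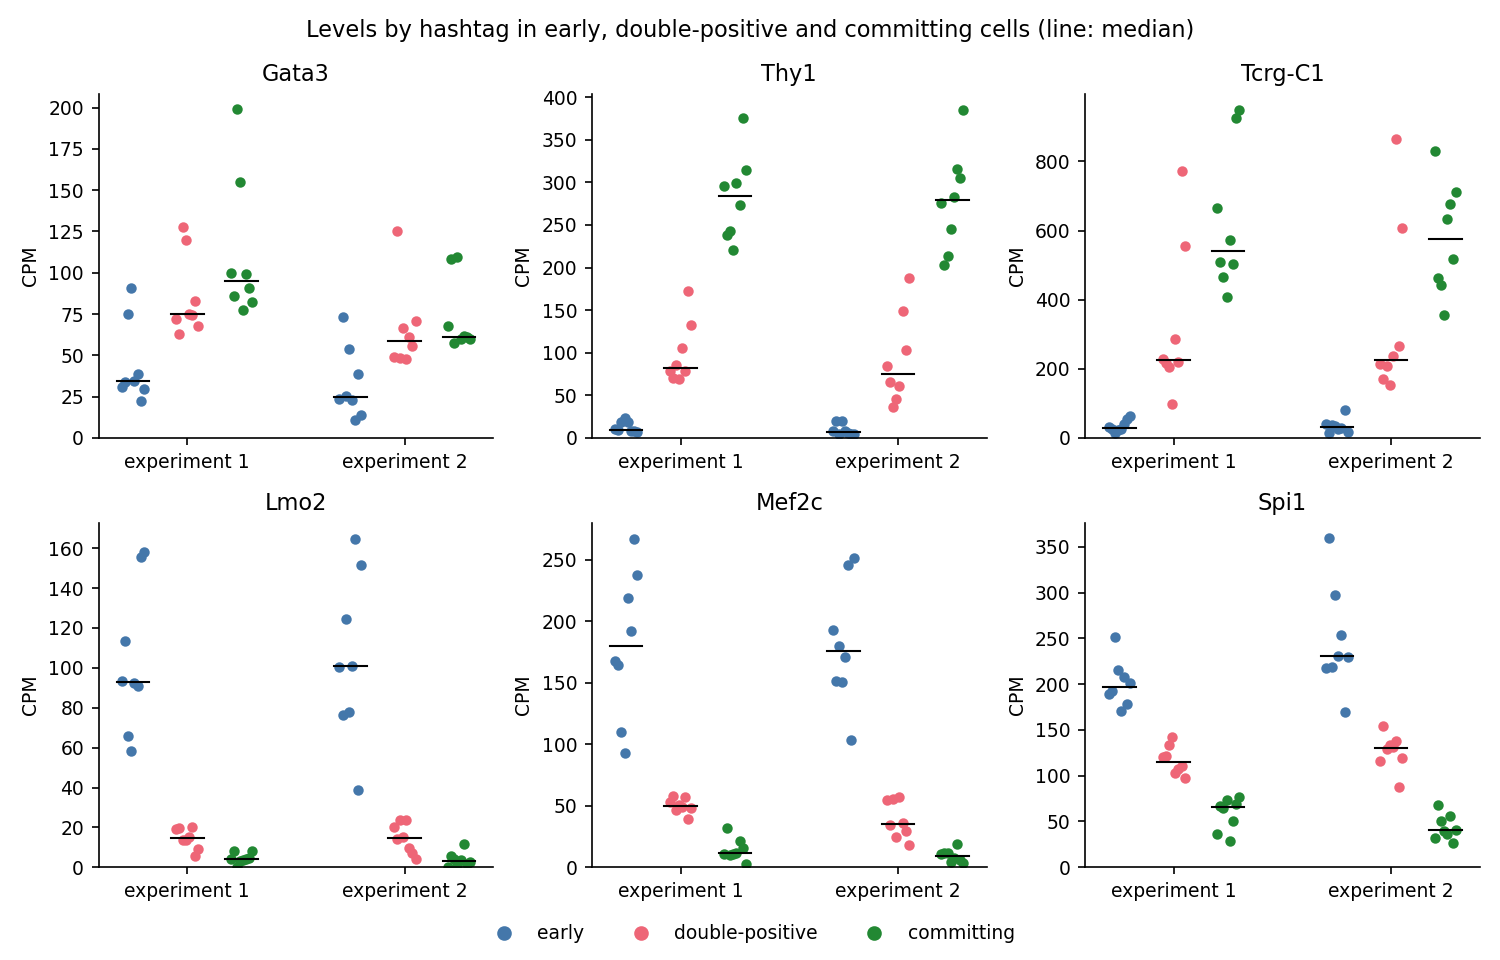
Levels in CPM (y axis, from 0) of 3 T-lineage genes (top) and 3 progenitor genes (bottom) in early, double-positive and committing cells of both experiments; each point is 1 hashtag and each line the median of 8. Thy1 and Spi1 keep the 3 gates apart in both experiments, whereas the ranges of Gata3 overlap.

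Progenitor genes had the opposite order. Of 17 progenitor regulators, 13 passed the level minimum against early cells, and 8 of them were lower in each experiment. The median log2 ratio of the 13 was -0.69 and -0.61, where all genes had 0.03 and 0.03. These 8 were Spi1, Bcl11a, Lmo2, Mef2c, Meis1, Hoxa9, Cd34 and Ly6a in both experiments. Against committing cells 9 of 13 were higher in experiment 1 and 9 of 11 in experiment 2, with median log2 ratios of 0.79 and 0.97. Committing cells were not chosen on Kit, itself a progenitor gene. When they had to have at least 2 Kit UMIs, the higher genes among all genes went from 106 to 46 and from 124 to 39. That choice was not applied to this list on its own. The granulocyte and monocyte list was also lower than in early cells, in 11 of 11 measured genes and 11 of 13; its summed level was 228 and 1240 CPM in double-positive cells against 1276 and 3137 in early and 88.8 and 843 in committing cells. Camp, a neutrophil granule gene, was higher than in early cells in experiment 2. Without doublets the sums of experiment 2 were 249 CPM in double-positive, 2555 in early and 102 in committing cells. The part of this list in the progenitor result was not tested.

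Lmo2, a bridging protein of blood stem cells, had the largest ratio to early cells among the 8 in both experiments. Over hashtags it ran from 5.42 to 20.2 CPM (median 14.4) in double-positive cells of experiment 1, from 58.2 to 158 (92.8) in early cells and from 0 to 8.24 (4.08) in committing cells. The ranges of experiment 2 were 3.99 to 23.7 (14.7), 39.0 to 165 (101) and 0 to 11.5 (3.00) CPM. Double-positive and early cells did not overlap in either experiment. Pooled Lmo2 was 4.19-fold lower than in early cells in experiment 1 (3.89 to 4.51) and 4.12-fold in experiment 2 (3.75 to 4.53); without doublets the folds were 6.07 and 6.64. Against committing cells it was 2.48-fold and 1.74-fold higher, and 4.12-fold and 6.23-fold without doublets.

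Mef2c, a factor of lymphoid and myeloid progenitors, ran from 39.1 to 57.8 CPM (median 50.0) in double-positive cells of experiment 1, between committing cells (2.75 to 31.7) and early cells (92.7 to 267), with no overlap. In experiment 2 it ran from 18.0 to 57.2 (34.9), below early cells (103 to 252) and overlapping committing cells (3.72 to 19.2). Spi1 encodes PU.1, which sustains the progenitor and myeloid programs. It ran from 97.7 to 142 CPM (115) against 171 to 252 in early and 28.2 to 76.9 in committing cells of experiment 1, and from 87.8 to 154 (131) against 169 to 359 and 26.6 to 68.5 in experiment 2. The 3 gates were fully apart in Spi1. Pooled, Spi1 was 1.61-fold and 1.80-fold lower than in early cells, and 1.81-fold and 1.88-fold higher than in committing cells (3.30-fold in experiment 2 without doublets). Spi1 was still widely found: after thinning 65.2% and 66.2% of double-positive cells had a UMI (89.5% and 90.2% before), against 81.2% and 85.5% of early and 37.6% and 31.6% of committing cells, and 0 of 17 and 1.85% of 108 stromal barcodes.

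Bcl11a, a lymphoid progenitor factor, was 1.58-fold and 1.53-fold lower than in early cells, and Cd34, a surface protein of progenitors, 1.81-fold and 2.33-fold. Hhex, a homeobox factor, was 1.34-fold and 1.25-fold lower than in early cells, short of 1.5, and 1.74-fold and 2.07-fold higher than in committing cells. Ly6a (Sca-1) was below both neighbours: 111 CPM against 205 and 170 in experiment 1, and 171 against 258 and 209 in experiment 2. The gap to committing cells passed 1.5 in experiment 1 only.

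A few regulators had their highest level in the double-positive cells. Lyl1, a factor related to Tal1, stood at 100 and 102 CPM in double-positive cells, 76.1 and 79.9 in early cells and 83.0 and 80.2 in committing cells. It was above early cells under 7 and 8 of 8 hashtags, but passed 1.5 against neither gate in either experiment. Mycn stood at 35.7 and 23.2 CPM against 28.0 and 15.0 in early and 25.8 and 10.6 in committing cells. In experiment 2 Mycn passed 1.5 against both gates, at 1.55-fold (1.36 to 1.76) and 2.18-fold (1.89 to 2.51), whereas in experiment 1 it was 1.27-fold and 1.38-fold.

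Notch signalling drives this stage. Of 12 Notch receptors and targets, 6 passed the minimum against early cells and none passed 1.5 in either experiment, where 2.23% of all genes were higher and 2.2% lower in experiment 1 and 2.53% and 3.53% in experiment 2. Against committing cells Nrarp alone was past 1.5, in experiment 2, and against all other cells Dtx1 and Nrarp were higher in experiment 2. Dtx1, a direct Notch target, ran from 26.3 to 76.7 CPM (median 52.3) over hashtags in experiment 1 and from 16.8 to 55.0 (44.0) in experiment 2. It was above early cells under 8 of 8 and 7 of 8 hashtags, at a pooled 1.47-fold (1.36 to 1.58) and 1.46-fold (1.32 to 1.62). Nrarp, which feeds back on Notch, was 1.23-fold and 1.14-fold higher than in early cells, and 1.21-fold and 1.53-fold higher than in committing cells. Notch1 itself was 1.20-fold higher than in early cells in both experiments and 1.48-fold and 1.27-fold lower than in committing cells.

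Genes of the T-cell receptor complex and its signalling were partly on. Of 20 such genes 11 passed the minimum against early cells in experiment 1, with 8 higher and none lower, and 13 in experiment 2, with 12 higher and none lower. The median log2 ratio was 1.32 and 2.12. Against committing cells 17 passed in each experiment, and 15 and 14 were lower, with medians of -1.19 and -1.26. No listed gene of this group was lower than in early cells or higher than in committing cells by the fold used.

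The genes for the receptor's gamma constant regions are transcribed early in the T lineage. Tcrg-C1 ran from 96.9 to 773 CPM (median 224) over hashtags of experiment 1, against 15.1 to 62.2 (28.8) in early and 408 to 949 (540) in committing cells. The same ranges were 155 to 864 (225), 13.1 to 81.3 (30.9) and 357 to 829 (577) in experiment 2. Double-positive and early cells did not overlap. Hashtags 7 and 8 of experiment 1 and hashtag 8 of experiment 2 lay within the range of committing cells, and hashtag 6 of experiment 2 above it (864 CPM). Pooled Tcrg-C1 was 8.87-fold (8.32 to 9.47) and 9.91-fold (9.23 to 10.6) higher than in early cells, and Tcrg-C2 17.0-fold (15.3 to 18.9) and 19.0-fold (17.0 to 21.2). Tcrg-C1 and Tcrg-C2 are near-identical, as are Trbc1 and Trbc2, so the split of their UMIs is uncertain. Trdc, the delta constant gene, stood at 43.2 and 64.2 CPM against 6.70 and 3.81 in early and 111 and 199 in committing cells.

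Cd3g, a chain of the CD3 complex, was still far below committing cells. It ran from 4.07 to 130 CPM (median 21.7) over hashtags of experiment 1 against 0 to 30.3 (1.59) in early and 97.6 to 743 (302) in committing cells. For experiment 2 these values were 0 to 261 (16.6), 1.43 to 48.3 (3.08) and 144 to 1724 (470). Hashtags 3 and 4 of experiment 1 (130 and 102 CPM) and hashtags 2 and 7 of experiment 2 (261 and 189 CPM) stood above the other double-positive cells. Only 19 and 42 double-positive cells stand behind these values of experiment 2. The ranges of all 3 gates overlapped in experiment 2. Pooled Cd3g was 6.41-fold and 4.34-fold higher than in early cells, and 9.80-fold and 16.4-fold lower than in committing cells. Cd3d, another CD3 chain, was 17.7-fold and 16.4-fold lower than in committing cells. Thinned, 8.64% and 9.59% of double-positive cells had a Cd3g UMI (12.4% and 18.7% before), against 1.49% and 4.30% of early and 41.8% and 62.8% of committing cells, and 1 of 17 and 0.926% of 108 stromal barcodes.

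Signalling genes also lay between the neighbouring gates. Lat, the adaptor below the receptor, stood at 67.7 and 83.3 CPM against 27.2 and 25.1 in early and 154 and 199 in committing cells, and was below committing cells under every hashtag. Lck, the receptor-proximal kinase, was 1.44-fold and 1.78-fold higher than in early cells and 1.56-fold and 1.70-fold lower than in committing cells. Txk, a Tec family kinase, was 6.28-fold and 5.28-fold higher than in early cells. The recombinase gene Rag1 was near 0, at 1.71 and 4.47 CPM against 10.4 and 14.7 in committing cells. Against all other kept cells, Cd3g was 2.60-fold and 4.89-fold lower in double-positive cells. When cells with Bcl11b or Zbtb16 were let in, the ratio of Cd3g to the remaining cells turned to 1.45 in experiment 1 and became 0.93 in experiment 2.

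**Figure D3:**
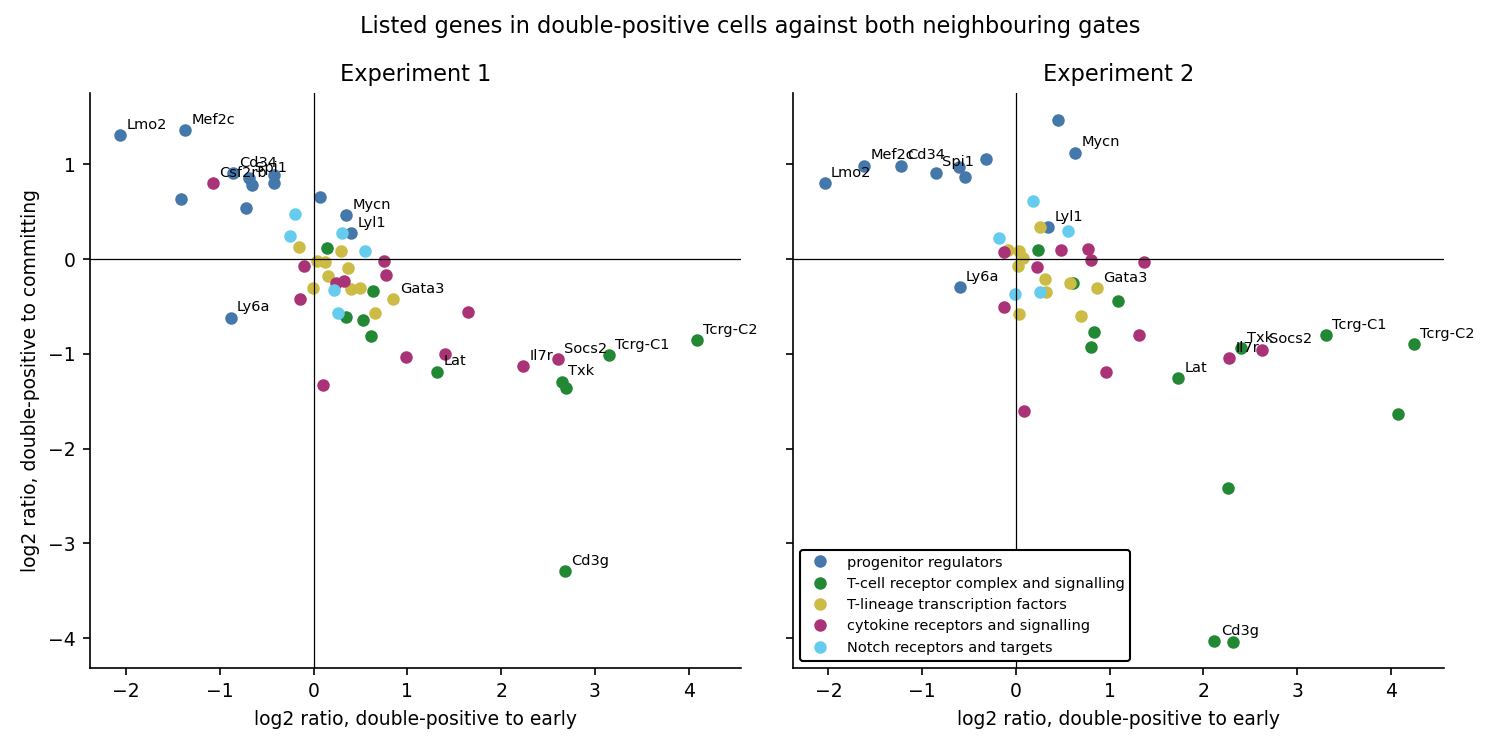
Log2 ratio of listed genes in double-positive cells to early cells (x axis) and to committing cells (y axis); each point is a gene of 5 lists that reached 10 CPM in both comparisons. Genes in the lower right lie between the gates and include Tcrg-C1, Lat and Il7r, and genes in the upper left lie between them in the opposite order and include Lmo2, Mef2c and Spi1.

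Of 16 surface genes of T progenitors, 10 and 11 passed the minimum against early cells, and only Thy1 was higher in each experiment, while 1 gene (Cd7) and 4 genes (Cd7, Cd53, Cd81 and Ccr7) were lower. Thy1 encodes the surface marker Thy-1 of the T lineage. It ran from 69.0 to 172 CPM (median 82.0) in double-positive cells of experiment 1, from 7.06 to 24.0 (9.75) in early and from 221 to 375 (284) in committing cells. In experiment 2 the ranges were 36.5 to 188 (75.4), 4.23 to 20.2 (6.47) and 204 to 385 (279) CPM, so the 3 gates were apart in both experiments. Pooled Thy1 was 7.04-fold (6.36 to 7.81) and 9.50-fold (8.38 to 10.8) higher than in early cells, and 2.99-fold and 3.06-fold lower than in committing cells. Cd7, a lymphoid surface protein, was lower than in early cells, by 1.64-fold and 1.80-fold. Cd44, an adhesion receptor on the progenitor list, was 1.85-fold and 1.83-fold higher than in committing cells.

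Cytokine receptor and signalling genes differed in both directions. Of 20 genes for cytokine receptors and their signalling, 16 passed the minimum against early cells in experiment 1, with 7 higher and 4 lower, and 15 in experiment 2, with 7 higher and 3 lower. The 7 higher genes were Il7r, Stat5a, Cish, Socs1, Socs2, Bcl2 and Bcl2l1 in both experiments. Il7r, which encodes the alpha chain of the IL-7 receptor, ran from 4.38 to 52.1 CPM (median 20.0) in double-positive cells of experiment 1, against 2.18 to 11.6 in early and 24.3 to 68.7 in committing cells. In experiment 2 the ranges were 0 to 70.9 (15.6), 0 to 16.9 and 11.4 to 84.6. These ranges overlapped, while pooled Il7r was 4.71-fold (3.94 to 5.66) and 4.85-fold (4.03 to 5.85) higher than in early cells.

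Socs2 and Cish, inhibitors that STAT5 induces, were also higher than in early cells, Socs2 by 6.08-fold and 6.18-fold and Cish by 3.14-fold and 2.58-fold. Socs2 was highest under hashtags 7 and 8 of experiment 1 (135 and 106 CPM, others 9.97 to 40.3) and 6 and 8 of experiment 2 (207 and 192, others 3.03 to 49.5). These are the hashtags that were also highest in Tcrg-C1 and Runx1. Bcl2, a survival gene, was 1.98-fold and 1.95-fold higher than in early cells, but its counts may include the transgene. Receptors of the myeloid growth factors were lower: Csf1r by 4.13-fold and 4.93-fold, and Csf2rb by 2.11-fold and 2.45-fold. Without doublets the Csf1r folds were 9.65 and 9.56 and the Csf2rb fold of experiment 2 was 3.76. Csf1r also stands on the granulocyte and monocyte list. Flt3, a receptor of early progenitors, was below the minimum of 10 CPM, at 1.69 and 2.07 CPM (0.831 and 0.679 without doublets) against 7.70 and 8.94 in early cells.

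Part of the innate lymphoid list was higher than in early cells. Of 22 genes, 8 and 10 passed the minimum against early cells; 4 and 6 were higher and 1 (Tyrobp) was lower in each. Gzma, which encodes granzyme A, ran from 965 to 1967 CPM (median 1381) over hashtags of experiment 1, against 14.1 to 746 in early and 1889 to 4257 in committing cells. In experiment 2 it ran from 1031 to 2007 (1445), against 10.5 to 500 and 2654 to 4752. Early and double-positive cells did not overlap. Granzyme genes are close relatives, so their UMIs may be split. Fcer1g and Tyrobp, adaptors of innate receptors, differed in direction: Fcer1g was 1.87-fold and 1.67-fold higher than in early cells, and Tyrobp 1.81-fold and 1.96-fold lower. Eomes, a factor of natural killer cells, had no UMI in double-positive cells of experiment 1.

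Cell cycle and glycolysis genes did not differ between the gates by the fold used. All 20 S-phase genes and all 19 G2 and mitosis genes passed the minimum, and none passed 1.5 in either direction against early or committing cells. The summed S-phase list stood at 3636 CPM in double-positive cells of experiment 1 against 3342 in early and 3781 in committing cells, and at 3116, 2820 and 3236 in experiment 2. None of 14 measured glycolysis genes passed 1.5 either. Over all genes, 2.23% were higher and 2.2% lower than in early cells in experiment 1, and 2.53% and 3.53% in experiment 2. Against committing cells these shares were 1.41% and 2.94%, and 1.73% and 3.84%. A count of none in lists of this size is near those shares. Ccnd1 was the exception among 9 measured D cyclins and Cdk inhibitors in experiment 1. This cyclin D1 gene stood at 22.4 CPM against 59.8 in early and 6.88 in committing cells in experiment 1, and at 22.1, 58.8 and 12.4 in experiment 2. Its ratio to committing cells was 3.25 and 1.79, and 7.48 and 6.44 without doublets. In experiment 2 Cdkn1a, which encodes the inhibitor p21, was also past the fold, at 1.70 times its level in early cells.

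Against all other kept cells, which mix several stages and lineages, few genes stood out as higher. Of 7442 genes in experiment 1, 0.0941% were higher and 1.26% lower, and of 7310 in experiment 2, 0.465% were higher and 5.91% lower. Shared between experiments were 4 higher genes (57.1% and 11.8% of those in experiments 1 and 2) and 87 lower genes (92.6% and 20.1%). The 7 genes higher in experiment 1 became 15 without doublets, 4 without hashtag 1, 1 without hashtag 2 and 11 without hashtag 5, and the 34 of experiment 2 became 70 without doublets. Among the listed groups the higher genes were Tcrg-C2 in both experiments, and Tcrg-C1, Dtx1, Nrarp, Mycn and Gfi1b in experiment 2. The 12 genes that ranked highest in both experiments were Tcrg-C2, Khdc1a, Deptor, Hbb-bt, Chdh, Abcb9, Bpifc, Dnmt3b, Ctla2a, Myl10, Prelid2 and Fgf3. With only 4 genes higher by 1.5 in both experiments, most of these 12 fell short of that fold in at least 1. Khdc1a, a member of a family of close copies, stood at 139 and 107 CPM against 87.6 and 61.3 in the others. Dnmt3b, a de novo DNA methyltransferase, was 1.44-fold and 1.66-fold higher, and Deptor, an inhibitor of mTOR, 1.51-fold and 1.79-fold.

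Fgf3, a fibroblast growth factor gene, had a range over hashtags of 56.8 to 145 CPM (median 115) in experiment 1 and 63.3 to 224 (120) in experiment 2. Other cells ran from 17.5 to 149 (55.5) and from 5.71 to 106 (38.4), so the ranges overlapped, and double-positive cells were higher under 6 and 8 of 8 hashtags. Pooled Fgf3 was 1.38-fold (1.33 to 1.43) and 2.14-fold (2.04 to 2.24) higher than in other cells. It was 4.32-fold and 5.28-fold higher than in early cells.

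Hbb-bt, an adult beta globin gene of red cells, stood at 2288 and 2483 CPM against 1536 and 1141 in other cells, 1343 and 1336 in early and 1137 and 809 in committing cells. It was above committing cells under 8 of 8 hashtags in both experiments. After thinning 90.1% and 88.7% of double-positive cells had a Hbb-bt UMI (94.4% and 93.5% before), against 72.6% and 69.8% of early cells and 70.0% and 54.6% of committing cells. Stromal barcodes had one in 5.88% of 17 and 11.1% of 108 after thinning, and in 47.1% and 24.1% before. Globin genes are close copies, and the source of these UMIs was not tested.

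The 12 genes that ranked lowest were S100a8, S100a9, Elane, Prtn3, Lyz2, Cxcl12, Ms4a6c, Dntt, Pgam2, Gsn, Lmo2 and Cd3g. Dntt, which encodes the terminal transferase that adds bases to receptor genes, stood at 11.5 and 21.9 CPM against 30.1 and 67.7 in other cells, 27.0 and 32.0 in early and 104 and 225 in committing cells. Gsn, the actin-severing gelsolin, stood at 27.0 and 34.9 CPM against 68.5 and 101 in other cells. Over hashtags it ran from 3.62 to 126 CPM (median 8.56) in double-positive cells of experiment 1 and from 6.39 to 267 (9.75) in experiment 2, below the other cells under 8 of 8 hashtags in both. The median of its ratio over hashtags was 0.572 and 0.268. Pgam2, a muscle form of phosphoglycerate mutase, was 2.62-fold and 3.61-fold lower by the pooled sums. Its ratio turned above 1 as the median over hashtags (1.07 and 1.06) and without the limit on Bcl11b and Zbtb16 (1.78 and 1.15), as did that of Gsn in experiment 1 without that limit (1.13). S100a8 and Elane belong to the granulocyte list.

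By summed level, markers of most other cell classes were lower in double-positive cells than in other cells. The innate lymphoid list differed little, at 2634 against 2717 CPM in experiment 1 and 2748 against 2836 in experiment 2. Of its measured genes 1 of 8 and 4 of 12 were lower by the fold used. Of 15 granulocyte and monocyte markers, 9 of 10 measured in experiment 1 and 12 of 14 in experiment 2 were lower than in other cells, and none was higher. Their summed level was 228 CPM against 777 in other cells of experiment 1 and 1240 against 5379 in experiment 2, and 178 and 249 CPM over double-positive cells with 1 hashtag. Elane, neutrophil elastase, stood at 1.74 and 43.3 CPM, and at 0.599 and 0.873 without doublets. S100a8, a neutrophil alarmin, had 309 CPM in experiment 2 and 15.0 without doublets. After thinning, 13.1% of double-positive cells of experiment 2 had an S100a8 UMI, against 17.6% of 108 stromal barcodes (44.2% and 34.3% before thinning). These shares do not show how many UMIs each barcode held, so they cannot tell whether the level is background. By the sums with and without doublets, most of the myeloid RNA in double-positive cells of experiment 2 was in doublets. The part of doublets in the other ratios was not tested beyond leaving them out.

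Of the 9 stromal markers, 4 of 4 and 5 of 5 measured were lower than in other cells, and the sort for CD45 should leave such cells out. They summed to 7.92 and 226 CPM, with Dcn at 0, against 70.4 and 702 CPM in other cells, and to 8.91 and 11.0 CPM without doublets. Early and committing cells had stromal sums of 1.90 and 264, and 23.4 and 210 CPM; in experiment 2 these were 179 and 30.2 CPM without doublets. B-lineage markers (10) summed to 27.5 and 63.8 CPM against 38.2 and 147, and to 26.6 in both experiments without doublets, with Pax5 at 0 in experiment 1; 0 of 1 and 5 of 5 measured were lower. Dendritic cell markers (11) summed to 546 and 840 CPM against 751 and 1510, with Xcr1, Clec9a and Cd209a at 0 in experiment 1 and Cd209a in experiment 2; 4 of 5 and 5 of 6 measured were lower. Mature T-cell markers (6) summed to 16.0 and 40.7 CPM against 21.5 and 77.1, with Cd4 at 0 in both and Cd8b1 in experiment 1; 0 of 1 and 1 of 2 measured were lower. None of these lists had a gene that was higher than in other cells.

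The mast cell and basophil list (9 genes) summed to 237 against 238 CPM in other cells and 290 against 293, and to 252 against 222 and 223 against 313 without doublets, with 1 of 3 measured genes (Prss34) lower. Of its genes Fcer1a and Cma1 were at 0 in experiment 1 and Mcpt4 in experiment 2. Most of its level was Cpa3, a mast cell carboxypeptidase, at 168 and 150 CPM against 67.2 and 44.9 in early and 226 and 192 in committing cells. Cpa3 was above early cells under 8 of 8 hashtags in both experiments. Prss34, a basophil protease, was at 39.6 CPM in experiment 2, and at 0.582 without doublets.

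**Figure D4:**
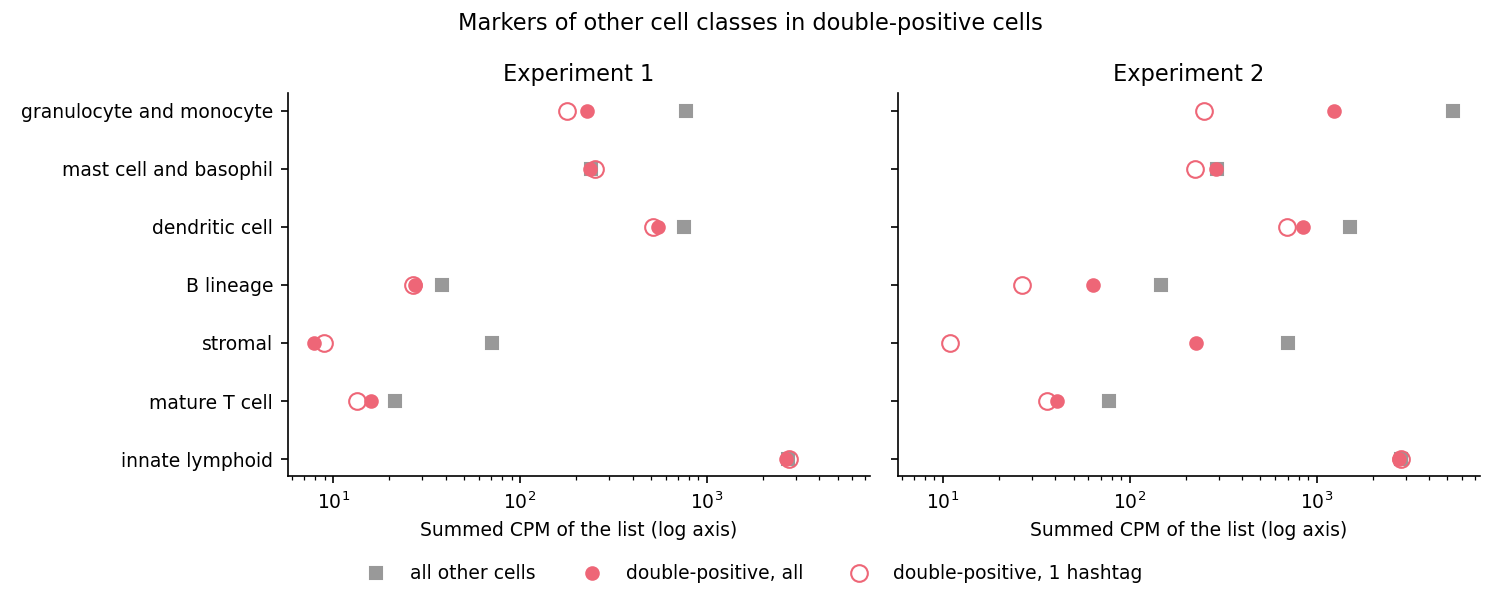
Summed level of 7 marker lists (CPM, log axis) in double-positive cells, in double-positive cells with 1 hashtag (open circles) and in all other kept cells (squares). In experiment 2 the granulocyte and stromal sums fall from 1240 to 249 and from 226 to 11.0 CPM when doublets are left out.

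Double-positive cells also differed among themselves. After thinning, the middle 50% of cells carried 5 to 11 UMIs of the 17 progenitor regulators (median 8) and 14 to 29 UMIs of the 20 receptor genes (median 20) in experiment 1. In experiment 2 the medians were 7 and 22. Early cells had medians of 13 and 10 UMIs in both experiments, and committing cells 5 and 38, and 4 and 44. Across double-positive cells the 2 sums ran against each other, with Spearman's rho of -0.30 over 1238 cells and -0.29 over 459 cells, and -0.28 and -0.23 without doublets. This describes cells that share a library, a fixed total of UMIs and mixed cultures, and the relation was weak. The rho was -0.19 and -0.21 within early cells and -0.22 and -0.29 within committing cells.

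**Figure D5:**
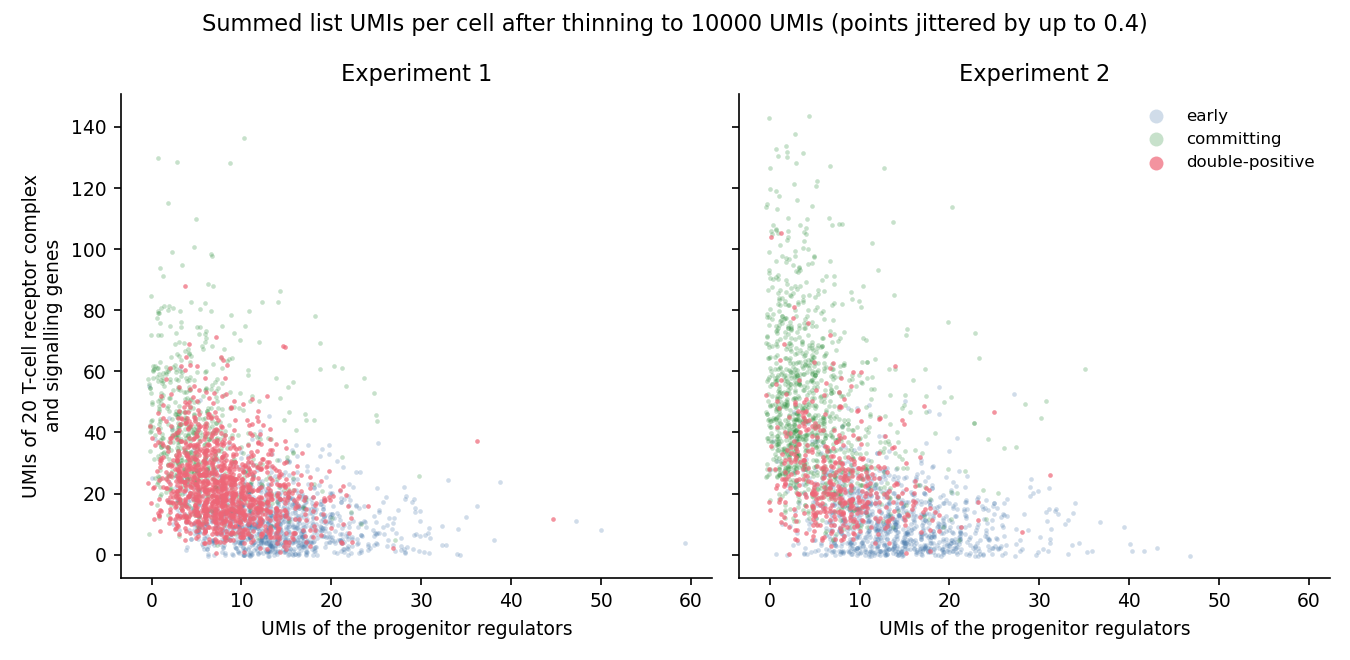
UMIs of 17 progenitor regulators (x axis) against UMIs of 20 T-cell receptor complex and signalling genes (y axis) per cell after thinning to 10000 UMIs; points are cells, jittered. Double-positive cells, with medians of 8 and 20 UMIs in experiment 1, lie between early cells (13 and 10) and committing cells (5 and 38) and overlap both.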

How the data were processed

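Raw UMI counts per gene and cell for 2 mRNA libraries, and raw hashtag counts for 2 hashtag libraries, were deposited by the authors without normalization. Cell Ranger 3.0.0 is named in the submitters' processing notes, which list the builds mm10 and GRCm38; libraries were made with 10x Chromium v3, per the labels' protocols. Whether hashtag counts are molecules or reads is not given in the sources used here. The 8 hashtag columns of each table name no condition. Gene symbols are those of the files; of 31053 gene IDs, 30934 matched the reference table of names.

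Double-positive cells and gates were found on the raw counts with Python 3.11.15. HTODemux (Seurat 5.3.0, quantile 0.99) called the hashtags. Stromal barcodes were unhashed barcodes with at least 5 collagen UMIs after thinning, a choice made after seeing the data. UMIs were summed and scaled to 1000000 (CPM). Intervals are exact 95% intervals (binomial for shares, conditional binomial for ratios of sums). The ratio step was tested on simulated data. No p-value is given: there is 1 library per experiment, cells are not replicates, and the cells were chosen by their counts. TMM (edgeR 4.0.16) and size factors (DESeq2 1.42.0) were tried as other scalings.

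Named genes are the 242 genes of 17 lists and the 12 highest and 12 lowest against other cells: at least 20 CPM in the higher and 10 UMIs in the lower group in both experiments, same direction, ranked by the smaller log2 ratio. The cells, lists and rules were chosen with earlier results of these data known. Doublets were kept and then left out as an alternative. Other alternatives were cell filters, thresholds, thinning, scaling, hashtag calls and leaving out each hashtag.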

Additional observations from a re-analysis of the deposited data

Results flagged for a closer look

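A hashtag stood apart from the other 7 in 5 of 62 sets of values checked (the share of double-positive cells and the levels of 30 genes in them, in each experiment). Chance marks about 1 in 20 such sets. Lef1 under hashtag 7 of experiment 1 was 23.9 CPM, with the next at 4.65. Gata3 under hashtag 2 of experiment 2 was 125 CPM, with the next at 70.9. Myb under the same hashtag was 310 CPM, with the next at 233; only 19 cells stand behind both values. Nrarp under hashtag 6 of experiment 2 was 51.4 CPM, with the next at 32.4. Khdc1a under hashtag 8 of experiment 2 was 323 CPM, with the next at 157.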

How the results depend on the processing

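The share of double-positive cells moved past its counting interval with most choices of cells. For experiments 1 and 2 it was 12.4 and 3.94% over cells with 1 hashtag, 21.5 and 9.06% with both thresholds lowered by 1, 7.32 and 2.16% with both raised by 1, 23.4 and 9.85% without the limit on Bcl11b and Zbtb16, and 3.64 and 0.693% after thinning. Leaving out 1 hashtag at a time gave 12.8 to 14.2% and 3.98 (without hashtag 3) to 4.88%; the high end of experiment 1 came without hashtags 3 and 4. Against other cells, the 7 higher genes of experiment 1 became 16 with the stricter cell filter, 15 with 1 hashtag, 16 and 4 with lowered and raised thresholds, 51 without the limit, 14 with other cells of like depth, 18 as the median over hashtags and 1 to 11 with a hashtag left out. The 34 of experiment 2 became 70 with 1 hashtag, 75 without the limit, 62 after thinning and 86 as the median over hashtags. With a fold of 2 in place of 1.5, the counts higher and lower were 0 and 45 (experiment 1) and 3 and 246 (experiment 2) against other cells, 72 and 56 and 79 and 87 against early cells, and 23 and 90 and 37 and 124 against committing cells. A minimum of 20 CPM left 42 and 230 lower genes; with no minimum, 1262 and 1084 were higher and 5189 and 7688 lower. Alternatives for the neighbouring gates were chosen after seeing the data: against committing cells of experiment 2, 233 genes were higher with 1 hashtag and 250 after thinning, and requiring 2 Kit UMIs of committing cells gave 46 higher and 115 lower in experiment 1 and 39 higher in experiment 2. The cause of these moves was not tested beyond what each choice does by construction.

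Of 7010 gene ratios to other cells under alternatives, 1953 moved outside their counting interval, and 12 more, all past 1.5 in the values reported, changed direction. Without the limit, ratios in experiment 1 were 1.45 for Cd3g, 1.22 for Cd3d, 1.21 for Skap1, 1.78 for Pgam2 and 1.13 for Gsn, and in experiment 2 1.24 for Cd247 and 1.15 for Pgam2. Pgam2 was 1.07 and 1.06 as the median over hashtags. Prss34 was 1.04 in experiment 1 with 1 hashtag, and in experiment 2 1.11 with raised thresholds and 1.36 with other cells of like depth. TMM and DESeq2 scaling moved no count by more than 1.5 times. Counting error limits the rarest groups most, such as the 10 double-positive cells of hashtag 4 in experiment 2. For some genes the gates were also compared within each hashtag, while gene counts, list sums and pooled folds rest on sums over hashtags. Between conditions, no paired test was possible because the hashtags carry no condition.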
